A study of Homo sapiens with 91 samples.

Results

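Condensin and cohesin are the ring-shaped ATPase complexes that shape chromosomes, and their subunit genes were followed here through single HEK293T cells. The set was named by gene and holds 10 genes of the 57820 identifiers in the count tables: SMC2, SMC4, NCAPD2, NCAPG and NCAPH of condensin I, and SMC1A, SMC3, RAD21, STAG1 and STAG2 of cohesin. Of these, 9 passed the filter of a mean of at least 10 CPM (counts of exonic barcodes scaled to a common library total) over all libraries and were tested, and SMC4, which was listed at 0 exonic barcodes in every library, was not. The condensin genes NCAPG and NCAPD2 were high in cells with high levels of mitotic genes and low in cells with low levels of them. Between cells, the level of the cohesin gene STAG2 tended to rise with that of replication genes. The part of library depth in the STAG2 relation was not tested. None of the 9 varied between cells by more than the test could separate from the scatter of the method.

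In each complex a pair of SMC proteins joins at a hinge, and a kleisin subunit closes the ring by bridging their ATPase heads. Condensin compacts chromatin into chromosomes as cells enter mitosis. Cohesin holds sister chromatids together from S phase until anaphase, and it extrudes chromatin loops in interphase. A dividing cell line needs both complexes, and as background some of their regulators, such as separase and the shugoshins, are genes whose transcripts peak around mitosis.

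The RNA libraries were made by MATQ-seq from total RNA in the amount of a single cell, and random barcodes on the cDNA let molecules be counted in place of amplified copies. HEK293T clone 1, a transformed human embryonic kidney line grown in a single medium, gave all 48 libraries used: 38 from single cells, and 10 labelled as pool-and-split averaged single cells, called averaged aliquots from here on. The aliquots give the scatter of the method, against which the spread between cells is read. Only 1 clone was used, and no label tells whether the groups shared a culture or a day, or the aliquots a pool, so p-values measure only the spread between these libraries and a difference in mean between the groups has no test.

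Single cells held 128322 to 326476 exonic barcodes and averaged aliquots 152542 to 275215. Intronic barcodes were 52.8% ± 8.27 of all barcodes in cells (SD, n = 38) and 57.6% ± 1.66 in aliquots (SD, n = 10). Among markers of the HEK293 line, IRS4 had a mean of 935 CPM in cells against 1146 CPM in aliquots, AMOT 1194 and 1316 CPM, NEFM 44.3 and 34.8 CPM, and PAX2 6.89 and 5.78 CPM. Of 12 markers of MCF10A, the mammary epithelial line also present in the series, KRT17 and KRT6A were at 0 exonic barcodes in all cells. The highest was CAV1, with a mean of 9.56 CPM in cells and 8.10 CPM in aliquots. The summed level of the 12 ran from 0 through a median of 16.4 to 77.9 CPM in cells and from 3.51 through 10.9 to 41.7 CPM in aliquots.

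The sequences upstream of NCAPD2, NCAPG and STAG2 are shown here, because these were the 3 subunit genes whose levels followed a cell cycle score between cells, NCAPD2 and NCAPG the G2/M score and STAG2 the G1/S score. Each is the 250 bases before a RefSeq transcription start (build GRCh38.p14), read 5′ to 3′ on the strand of the gene, and all 3 genes lie on the plus strand. Capitals mark 3 motifs, each searched on both strands. The first is TTTGAA, the core of the cell cycle homology region (CHR). The next is the CCAAT box, searched by the letters in its name. The last is a form of the E2F site, taken as any of the octamers TTTGGCGC, TTTCCCGC, TTTCGCGC and TTTGCCGC.
NCAPD2 (chr12:6493852-6494101): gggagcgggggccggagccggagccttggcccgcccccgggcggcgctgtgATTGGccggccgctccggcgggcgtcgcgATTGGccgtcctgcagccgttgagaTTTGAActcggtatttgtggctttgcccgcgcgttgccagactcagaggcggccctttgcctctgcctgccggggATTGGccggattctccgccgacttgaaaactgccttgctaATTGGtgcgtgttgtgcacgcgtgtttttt
NCAPG (chr4:17810729-17810978): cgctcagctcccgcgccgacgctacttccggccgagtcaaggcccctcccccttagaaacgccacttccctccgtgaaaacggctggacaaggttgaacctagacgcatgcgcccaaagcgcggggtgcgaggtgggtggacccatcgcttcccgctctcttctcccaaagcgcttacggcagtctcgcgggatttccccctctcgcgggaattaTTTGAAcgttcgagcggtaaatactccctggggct
STAG2 (chrX:123961808-123962057): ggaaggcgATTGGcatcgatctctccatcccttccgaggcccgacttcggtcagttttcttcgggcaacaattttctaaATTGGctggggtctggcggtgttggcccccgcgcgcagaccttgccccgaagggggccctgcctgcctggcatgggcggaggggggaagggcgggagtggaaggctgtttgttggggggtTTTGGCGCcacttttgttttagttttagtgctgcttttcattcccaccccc
The NCAPD2 window held 1 CHR core, 145 bases before the start, and 4 CCAAT boxes, the nearest 30 bases before it. The NCAPG window held 1 CHR core 35 bases before the start and no CCAAT box. The STAG2 window, 1 of 3 listed for this gene and shown because it held an E2F octamer, had that octamer 51 bases before the start and 2 CCAAT boxes but no CHR core.

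RefSeq windows were at hand for 9 of the 10 genes, 14 windows in all. A CHR core lay in a window of 4 of these 9 genes (NCAPD2, NCAPG, SMC3 and SMC4), against 13.3% of all 35116 windows of this length. A CCAAT box lay in a window of 4 genes (NCAPD2, NCAPH, STAG1 and STAG2), against 32.01% of all windows. An E2F octamer lay in a window of 3 genes (SMC1A, STAG1 and STAG2), against 2.79% of all windows. The gene counts pool up to 3 windows a gene and the shares are per window, so they are given side by side as a description.

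SMC2, which forms the core of condensin with SMC4, ran from 108 through a median of 175.1 to 326 CPM in single cells and from 113 through 207 to 262 CPM in averaged aliquots. Its mean was 175.7 ± 44.0 CPM in cells against 198.8 ± 43.3 CPM in aliquots (SD, n = 38 and 10), a log2 ratio of -0.18. The groups overlapped almost throughout, with 35 of 38 cells inside the range of the aliquots. SMC2 was also the subunit gene that followed the number of the cell most closely (Spearman rho = 0.480 over 38 cells, a description).

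SMC4, the other SMC subunit of condensin, was listed at 0 exonic barcodes in all 38 cells and all 10 aliquots. Its introns were not empty: they held 861 barcodes in cells and 238 in aliquots. Intronic SMC4 ran from 18.4 through 80.1 to 162 CPM in cells and from 44.4 through 92.5 to 143 CPM in aliquots (mean 83.8 ± 35.7 and 93.5 ± 24.3 CPM, SD). In the GENCODE release 29 annotation SMC4 exons overlap exons of IFT80 and TRIM59, which lie on the other strand. The protein-coding gene AC079594.2 overlaps SMC4 on that strand too. The series names no strand for the counting, so intronic reads of the overlapping genes cannot be told apart from those of SMC4. IFT80 and TRIM59 were listed at 0 exonic barcodes too, and TRIM59 held 64 intronic barcodes in all libraries together. Of 10718 protein-coding genes with at least 100 intronic barcodes, 331 were likewise listed at 0 exonic barcodes. The part of the exon overlap in the listed 0 was not tested, and the 0 is not read as absence of the transcript. The processed copy SMC4P1 held 1 exonic barcode, and a condensin total below leaves SMC4 out.

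NCAPD2, a HEAT-repeat subunit of condensin I, ran from 109.95 through a median of 310.4 to 534 CPM in single cells and from 273 through 361 to 545 CPM in averaged aliquots. Of the 38 cells 14 lay below every aliquot, none lay above, and 24 lay inside. Its mean was 323 ± 100.4 CPM in cells against 368 ± 75.7 CPM in aliquots (SD), a log2 ratio of -0.19. The coefficient of variation (CV, the SD over the mean) was 31.1% in cells and 20.6% in aliquots, and counting alone would give 11.9% and 12.2%. NCAPD2 overlaps exons of MRPL51 on the other strand, and the series names no strand for the counting, so reads of the overlap cannot be told apart.

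NCAPG, the other HEAT-repeat subunit, ran from 33.99 through 136 to 239 CPM in cells and from 46.9 through 106 to 126 CPM in aliquots. Here 21 of 38 cells lay above every aliquot, 2 lay below and 15 lay inside. The mean was 128 ± 48.8 CPM in cells against 88.9 ± 32.4 CPM in aliquots (SD), a log2 ratio of 0.53, the largest among the 9 tested subunit genes. Over all 9992 tested genes this ratio had a median of 0.02 with quartiles of -0.19 and 0.24. Summed over libraries, NCAPG stood at 131 CPM in cells (95% exact Poisson interval 124 to 139, from 1153 barcodes) and 92.05 CPM in aliquots (78.9 to 107, from 175 barcodes), and these intervals cover counting error only. The introns of NCAPG went the other way, with 55.6 ± 36.1 CPM in cells and 85.6 ± 38.4 CPM in aliquots (SD). Its intronic share was thereby 32.6% in cells and 55.0% in aliquots. NCAPG overlaps exons of LCORL on the other strand and has the annotated copies NCAPGP1 and NCAPGP2.

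NCAPH, the kleisin of condensin I, ran from 38.3 through 151 to 229 CPM in cells and from 113 through 134 to 205 CPM in aliquots. Most cells, 29 of 38, lay inside the range of the aliquots, 7 lay below and 2 above. The mean was 146.8 ± 37.4 CPM in cells against 142.5 ± 30.2 CPM in aliquots (SD), a log2 ratio of 0.04.

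SMC1A, which pairs with SMC3 in cohesin, had the highest CPM of the set. It ran from 465 through 686 to 913 CPM in single cells and from 632 through 815 to 1107 CPM in averaged aliquots. No cell lay above every aliquot, 11 lay below and 27 inside. The mean was 687 ± 105 CPM in cells against 848 ± 147 CPM in aliquots (SD), a log2 ratio of -0.30. Summed over libraries, SMC1A stood at 692 CPM in cells (95% Poisson interval 674 to 709), against 863 CPM in aliquots (822 to 906). SMC1A also had the lowest CV of the 9, at 15.2% in cells and 17.3% in aliquots, against 8.14% and 8.04% from counting. Its exons overlap RIBC1 on the other strand.

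SMC3, the partner of SMC1A, ran from 161 through 303 to 524 CPM in cells and from 167 through 242 to 334 CPM in aliquots. Of the 38 cells 15 lay above every aliquot and 1 below. The mean was 314 ± 85.9 CPM in cells against 248 ± 55.3 CPM in aliquots (SD), a log2 ratio of 0.34. Summed over libraries, SMC3 stood at 316 CPM in cells (305 to 328), against 245 CPM in aliquots (223 to 268). The mean in cells was thus above the mean in aliquots for SMC3 and below it for SMC1A, with no test of either difference. Most cells, 22 of 38 for SMC3 and 27 of 38 for SMC1A, lay inside the range of the aliquots.

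RAD21, the kleisin that separase cuts at anaphase, ran from 16.01 through 72.1 to 314 CPM in cells and from 23.4 through 65.1 to 173 CPM in aliquots. Its top value in each group stood apart: cell 22 at 314 CPM, where the next cell had 135 CPM, and aliquot 5 at 172.9 CPM, where the next aliquot had 98.4 CPM. The mean was 80.1 ± 46.7 CPM in cells against 74.8 ± 40.6 CPM in aliquots (SD), and without those libraries it was 73.7 ± 25.96 CPM in cells against 63.9 ± 22.8 CPM in aliquots. RAD21 exons overlap RAD21-AS1 and UTP23 on the other strand.

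STAG1 and STAG2 are the alternative HEAT-repeat subunits of cohesin, and a cohesin ring carries either of them. STAG1 ran from 24.3 through 80.3 to 203 CPM in cells and from 38.6 through 74.9 to 144 CPM in aliquots. STAG2 ran from 82.8 through 196 to 327 CPM in cells and from 141 through 195 to 278 CPM in aliquots. Cells and aliquots overlapped for both, with 34 of 38 cells inside the aliquot range for STAG1 and 27 for STAG2, and the log2 ratios of the means were 0.14 and 0.07. STAG1 exons overlap PCCB, and STAG2 exons overlap TENM1 and AL121601.1, all on the other strand.

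**Figure D1:**
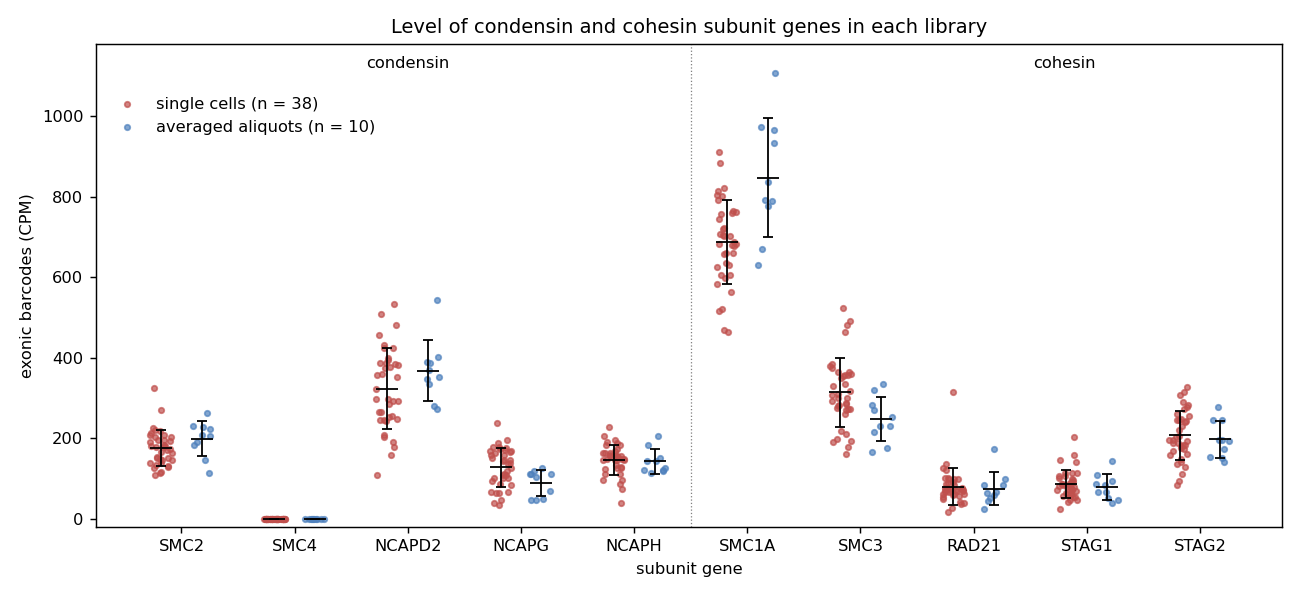
Exonic barcodes in CPM of each subunit gene (vertical axis) in each of 38 single cells (red, left of each pair) and 10 averaged aliquots (blue, right), with black bars for the mean and SD. NCAPG and SMC3 have 21 and 15 cells above every aliquot, SMC1A has 11 cells below every aliquot, and SMC4 is listed at 0 throughout.

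Per kilobase of exon (GENCODE release 29 exon unions), the order of the tested subunits in single cells was SMC3 at 73.5, SMC1A at 65.5, NCAPD2 at 49.8, NCAPH at 44.8, SMC2 at 27.2, NCAPG at 26.01, STAG2 at 25.3, RAD21 at 12.9 and STAG1 at 10.98 CPM per kb. In aliquots it was SMC1A at 80.9, SMC3 at 58.0, NCAPD2 at 56.8, NCAPH at 43.5, SMC2 at 30.7, STAG2 at 24.1, NCAPG at 18.1, RAD21 at 12.1 and STAG1 at 9.99 CPM per kb. In cells the neighbours SMC3 and SMC1A, NCAPD2 and NCAPH, SMC2 and NCAPG, NCAPG and STAG2, and RAD21 and STAG1 differed by less than the larger of their SDs between cells, and in aliquots the same held for SMC3 and NCAPD2 and for each neighbouring pair from SMC2 down. STAG2 was above STAG1 per kb in both groups. These levels rest on exon lengths of an annotation that may differ from the one the authors counted on.

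No library of either group had 0 exonic barcodes for any of the 9 tested subunit genes, also after every library was thinned to 128322 exonic barcodes. The mean number of exonic barcodes per cell was 160 for SMC1A, 75.6 for NCAPD2, 73.1 for SMC3, 46.8 for STAG2, 40.8 for SMC2, 34.3 for NCAPH, 30.3 for NCAPG, 19.7 for STAG1 and 18.4 for RAD21. Counting error alone thus set a CV of 23.9% for RAD21 and 22.99% for STAG1 between cells, and differences of that size between cells were not detectable for these genes at this depth.

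Of the genes of germ-cell cohesin, SMC1B, RAD21L1 and STAG3 were near the floor of the data, while REC8 was low but passed the filter. SMC1B, the meiotic partner of SMC3, averaged 4.31 ± 10.1 CPM in cells against 3.72 ± 8.24 CPM in aliquots (SD). The meiotic kleisin REC8 averaged 10.9 ± 12.3 and 12.6 ± 9.79 CPM, with 11 cells and 2 aliquots at 0 exonic barcodes. RAD21L1 averaged 0.309 ± 1.39 CPM in cells and was listed at 0 in aliquots. STAG3 averaged 1.39 ± 2.36 CPM in cells against 5.42 ± 12.1 CPM in aliquots. The median was 0 in both groups for SMC1B, RAD21L1 and STAG3.

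The next comparison asks whether subunit transcripts varied between cells by more than the method scatters. A negative-binomial dispersion, the variance beyond counting relative to the squared mean, was fitted to each group, and a likelihood-ratio test set 2 group dispersions against 1 shared value. None of the 9 tested subunit genes was called at adjusted p 0.05 (0 of 9), and none had an unadjusted p under 0.05. Among all 9992 tested genes the test called 0.23% as more variable in cells and 0.01% as more variable in aliquots, and 6.86% and 2.38% had an unadjusted p under 0.05 in those directions. limma on absolute deviations of log2 CPM also called 0 of the 9 genes, with 0 at an unadjusted p under 0.05, where it called 0% of all genes as more variable in cells and 0.03% as more variable in aliquots, with 3.67% and 3.54% at an unadjusted p under 0.05.

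The dispersion estimate was larger in cells for 6 of the 9 genes, equal for 2 (RAD21 and STAG1) and larger in aliquots for SMC1A. Over all tested genes it was larger in cells for 56.6%, and for 62.6% with the filter raised to 50 CPM. The median dispersion of the 9 was 0.0786 in cells and 0.0287 in aliquots, against 0.130 and 0.110 over all tested genes. The tested genes were not matched to the 9 in level, so these medians do not show that subunit genes vary less than other genes of their level. That was not tested.

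NCAPD2 came closest to a call. Its dispersion was 0.0930 in cells and 0.0243 in aliquots (dispersion test, p = 0.0890, adjusted p = 0.614), and limma gave adjusted p = 0.715. Aliquot 10, at 545 CPM with the next aliquot at 402 CPM, carried most of the aliquot dispersion: without it the aliquot dispersion was 0.00231, the aliquot CV 13.2%, and the dispersion test gave p = 0.00850 and adjusted p = 0.393. NCAPD2 was thus not called with or without that library. STAG2 had dispersions of 0.0786 in cells and 0.0287 in aliquots (dispersion test, adjusted p = 0.797), and NCAPG 0.130 and 0.0786 (adjusted p = 0.908).

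SMC3 (0.0562 in cells and 0.0287 in aliquots), NCAPH (0.0287 and 0.00383) and SMC2 (0.0287 and 0.0205) had larger estimates in cells, with adjusted p from the dispersion test of 0.860, 0.852 and 0.951. SMC1A had 0.0173 in cells and 0.0243 in aliquots (adjusted p = 0.906). RAD21 had 0.182 in each group, and without cell 22 the estimate in cells was 0.0664, while without aliquot 5 the estimate in aliquots was 0.0562. Its CV in cells was 58.3% with cell 22 and 35.2% without it. STAG1 had 0.0930 in each group. The ratio of the dispersion in cells to that in aliquots crossed 1 without cell 36 for SMC2 (0.845) and without aliquot 2 for SMC1A (1.18), and for STAG1 it was 0.604 without cell 8 and 1.96 without aliquot 2 or aliquot 9. It moved to 28.7 without aliquot 7 or aliquot 8 for NCAPH, to 3.83 without aliquot 3 for SMC3 and to 8.87 without aliquot 2 for STAG2. A p that misses the threshold does not show equal spread, and 10 aliquots left the aliquot estimates wide.

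**Figure D2:**
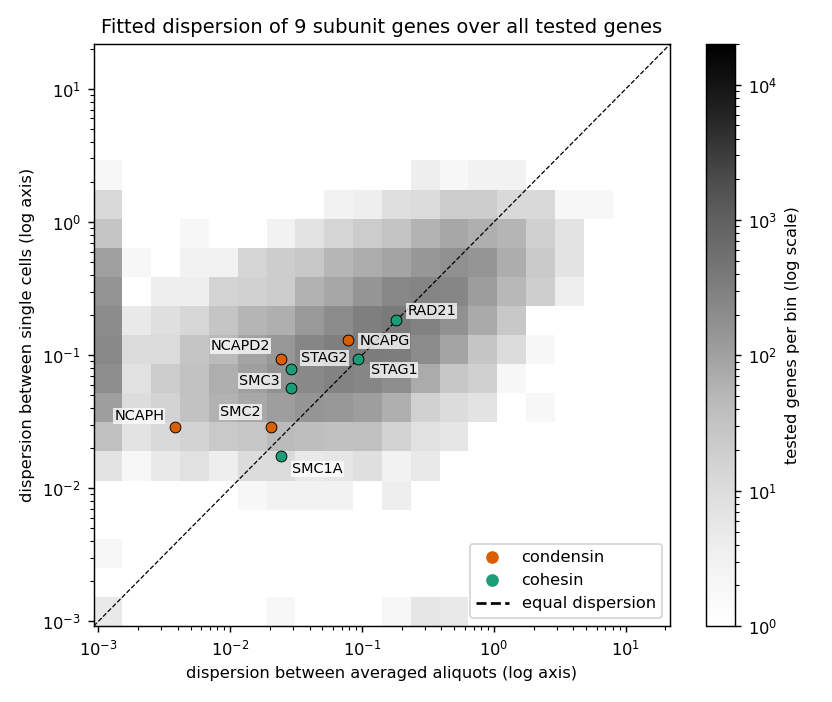
Fitted dispersion between 10 averaged aliquots (horizontal, log axis) and between 38 single cells (vertical, log axis) for 9 subunit genes (condensin orange, cohesin green) over the binned counts of all 9992 tested genes (grey). The dashed line marks equal dispersion: 6 genes lie above it, RAD21 and STAG1 on it and SMC1A below it, and none was called.

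Cell cycle position was then read from other genes. A G1/S score and a G2/M score were the mean z-scores of log2 CPM over 41 replication-phase and 49 mitotic-phase genes, none of them a subunit or one of the partner genes described below. These were left out of the lists, though condensin acts in mitosis and some partners, such as separase, have transcripts that peak around it. A relation of such genes to the G2/M score may be partly set by the choice of lists and is no independent finding. Over the 38 cells the scores ran against each other (Spearman rho = -0.717), and over the 10 aliquots they did not (rho = 0.673). Correlations with these scores are given as a description with no p, since scores and genes come from the same libraries and share their depth and scaling.

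NCAPG and NCAPD2 were the subunit genes that followed the G2/M score. NCAPG had a Spearman rho of 0.715 and a Pearson r of 0.745 over the 38 cells, the gene ranked 21 of 9992 from the top, and NCAPD2 had a rho of 0.664 and an r of 0.661 and ranked 32. A rho of at least 0.4 was reached by 2 of 9 subunit genes and by 2.71% of all tested genes. A rho of -0.4 or lower was reached by 0 of 9 and 1.46%. Here and below, ranks and shares over all tested genes include the 41 and 49 genes of the scores themselves. Without cells 15 and 32, whose scores lay farthest from the median, rho was 0.665 for NCAPG and 0.622 for NCAPD2. With the trend over cell number removed it was 0.724 and 0.680. Over the 10 aliquots rho was -0.467 for NCAPG and 0.503 for NCAPD2. NCAPG also had a rho of -0.431 with the intronic share of a library over cells, and its part in the relation was not tested.

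The cells at the ends of the score show the size of this relation. In the 3 cells with the highest G2/M score (cells 30, 29 and 14) NCAPD2 stood at 508, 425 and 400.4 CPM, and in the 3 with the lowest (cells 15, 32 and 3) at 192, 204 and 109.95 CPM. NCAPG stood at 177, 157 and 189 CPM in the highest 3 and at 38.3, 33.99 and 67.2 CPM in the lowest 3. SMC1A in the same cells had 679, 706 and 757 CPM against 720.5, 884 and 635 CPM, and overlapped.

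The other condensin genes had no such relation. SMC2 had a rho of -0.0982 with the G2/M score and NCAPH of 0.111. The Pearson r of NCAPH was 0.387, and 0.149 without cells 15 and 32, so it rested on those cells. The summed CPM of the 4 tested condensin genes, 773 ± 146 in cells and 798 ± 93.6 in aliquots (SD), had a rho of 0.678 with the G2/M score over cells and -0.115 over aliquots. The cohesin sum of 5 genes, 1374 ± 177 CPM in cells and 1446 ± 164 CPM in aliquots (SD), had a rho of 0.0196 over cells and 0.176 over aliquots. These sums weigh each gene by its CPM. NCAPD2 (323 ± 100.4 CPM in cells, SD) weighs most in the condensin sum and SMC1A (687 ± 105 CPM) in the cohesin sum. The rho of the condensin sum is thus no trait of each subunit, since SMC2 and NCAPH had no such relation. The difference between the complexes was not tested.

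With the G1/S score, STAG2 had the highest rho of the set, 0.557 (Pearson r = 0.494, rank 63 of 9992 from the top), and NCAPD2 the lowest, -0.586 (r = -0.556, rank 32 from the bottom). At least 0.4 was reached by 1 of 9 subunit genes and 3.27% of all tested genes, and -0.4 or lower by 1 of 9 and 2.6%. Without cells 18 and 37, the farthest from the median, rho was 0.574 for STAG2 and -0.561 for NCAPD2. Over aliquots rho was -0.0909 for STAG2 and 0.503 for NCAPD2, so neither relation had its sign in the pooled material. STAG2 had a rho of -0.346 with library depth over cells, and the part of depth in its relation to the score was not tested.

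In the 3 cells with the highest G1/S score (cells 37, 18 and 26) STAG2 stood at 189, 277 and 261 CPM, and in the 3 with the lowest (cells 8, 29 and 16) at 158, 93.5 and 173 CPM. These values did not overlap, but the nearest, 189 CPM in cell 37 and 173 CPM in cell 16, rested on 59 and 32 exonic barcodes. Cell 37, with the highest score, lay below the STAG2 median of 196 CPM over all cells. Counting alone gives STAG2 a CV of 14.8% between cells. STAG1, its alternative in the ring, had a rho of -0.0743 with the G1/S score and 0.0951 with the G2/M score. SMC1A (0.0929 with G1/S and 0.0434 with G2/M), SMC3 (0.197 and -0.0185), RAD21 (-0.0968 and 0.0745) and SMC2 (0.207 with G1/S) stayed inside the threshold.

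**Figure D3:**
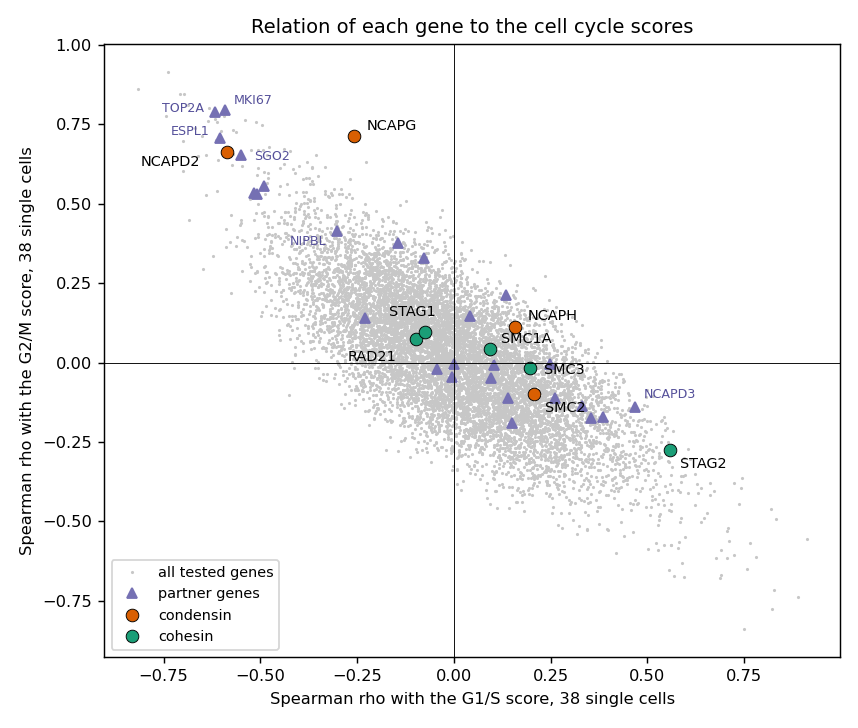
Spearman rho of each gene with the G1/S score (horizontal) and with the G2/M score (vertical) over 38 single cells, for condensin (orange) and cohesin (green) subunit genes, partner genes (purple triangles) and all 9992 tested genes (grey). NCAPG (0.715) and NCAPD2 (0.664) lie at the top with the mitotic partner genes, STAG2 lies at the far right (0.557), and the other subunit genes lie in the middle of the cloud.

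**Figure D4:**
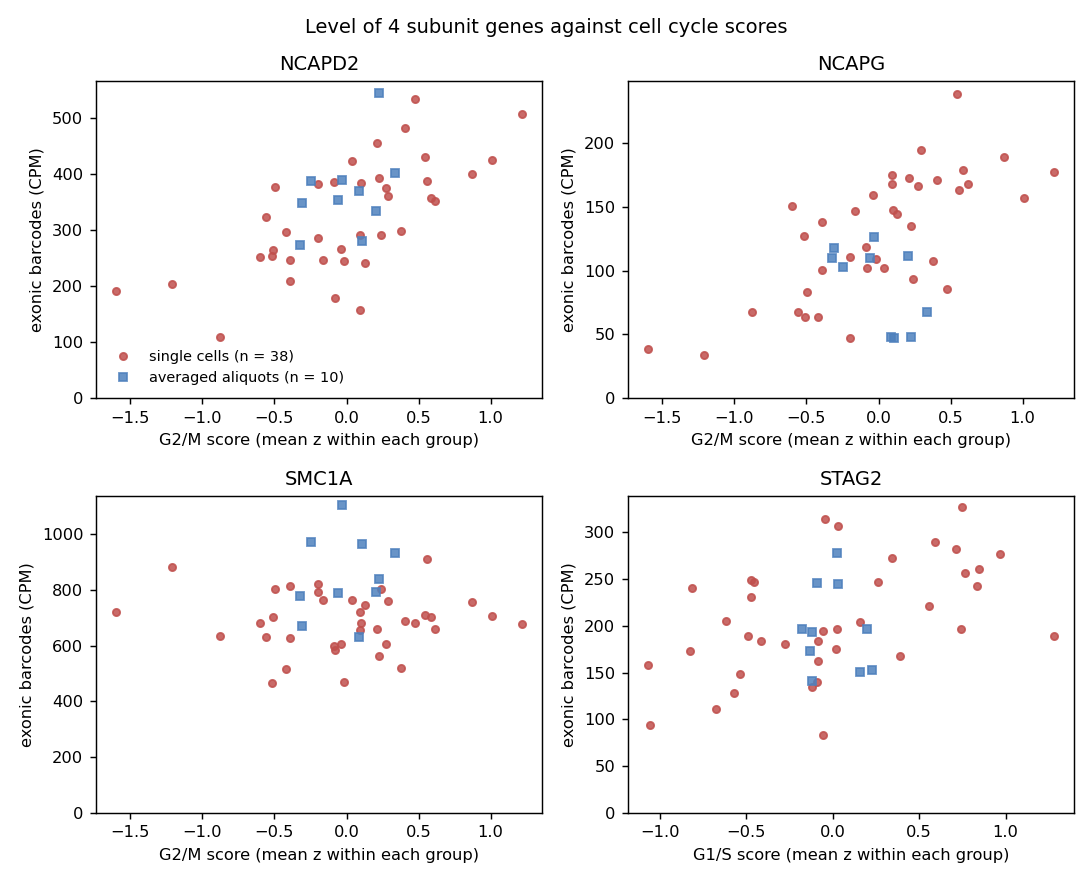
Exonic barcodes in CPM (vertical) of NCAPD2, NCAPG and SMC1A against the G2/M score and of STAG2 against the G1/S score (horizontal, mean z-score within each group), with 1 point per library for 38 single cells (red circles) and 10 averaged aliquots (blue squares). NCAPD2 and NCAPG are low in the cells of lowest G2/M score and high in those of highest score, whereas SMC1A is spread evenly.

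Genes of the same complex had weak pairwise correlations on average. Over the 38 cells the mean pairwise Spearman rho was 0.108 over 6 condensin pairs, 0.00893 over 10 cohesin pairs and 0.0615 over 20 pairs between the complexes, and over the 10 aliquots it was 0.0162, -0.0242 and 0.133. Over all pairs of tested genes the mean was 0.00346 in cells and 0.000493 in aliquots. The largest positive pairs in cells were NCAPG with SMC3 (0.406), SMC3 with STAG2 (0.405) and NCAPD2 with NCAPG (0.401), and the most negative was SMC2 with STAG1 (-0.424). SMC1A and SMC3, whose proteins form a heterodimer, had a rho of -0.0581 in cells and 0.0545 in aliquots.

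**Figure D5:**
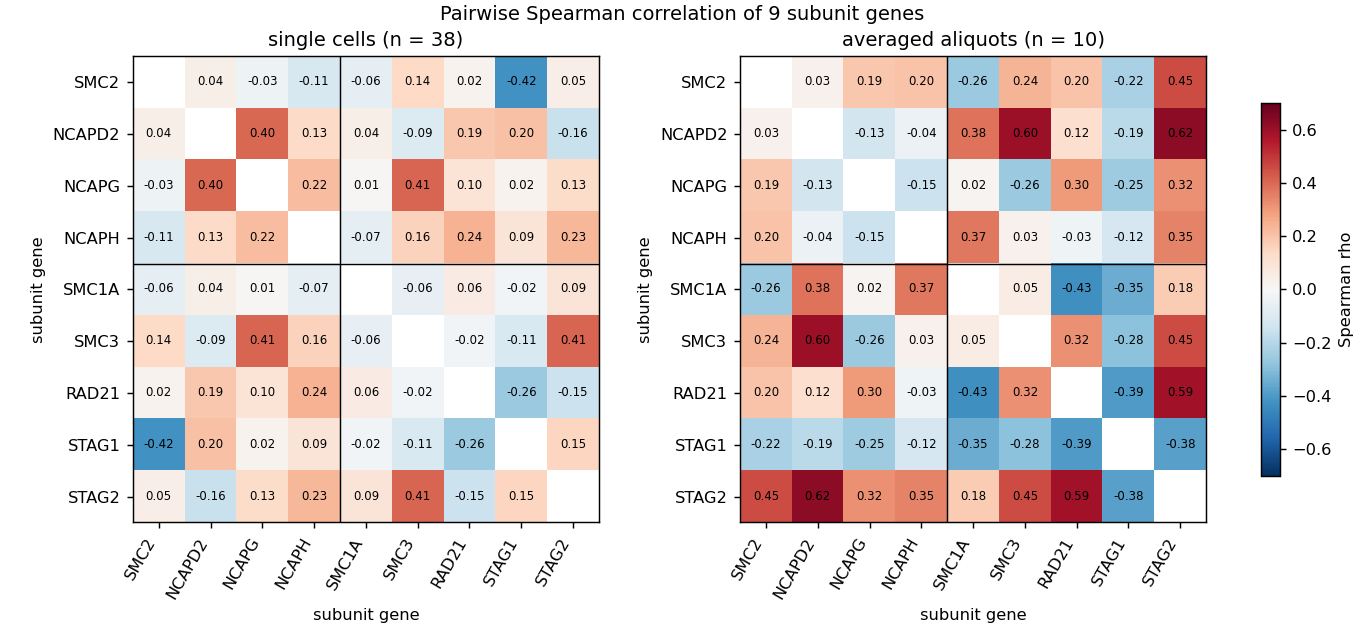
Spearman rho between each pair of the 9 tested subunit genes over 38 single cells (left) and 10 averaged aliquots (right), with black lines between condensin (upper left block) and cohesin (lower right block). In cells the pairs at or above 0.4 are NCAPG with SMC3, SMC3 with STAG2 and NCAPD2 with NCAPG, and each block holds values of both signs.

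Intronic barcodes give a second readout of the same genes, closer to nascent RNA. The intronic share differed widely within the set: STAG1 was at 89.6% in cells and 91.6% in aliquots, STAG2 at 71.3% and 67.2%, and SMC2 at 16.2% and 10.53%. Intronic STAG2 averaged 460.3 ± 169.7 CPM in cells against 305 ± 61.2 CPM in aliquots (SD), with a CV of 36.9% and 20.1%. STAG1, by far the most intronic of the set, had 642 ± 153 CPM in cells and 616 ± 92.4 CPM in aliquots. RAD21 introns held 22.9 ± 12.3 CPM in cells and 36.8 ± 15.9 CPM in aliquots.

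The relation of the intronic counts to the cell cycle scores is given for the same genes. Intronic NCAPG had a rho of 0.247 and intronic NCAPD2 of 0.186 with the G2/M score over cells. Intronic SMC4, the only readout of that gene here, had a rho of 0.328 with the G2/M score and -0.199 with the G1/S score. These intronic counts may hold reads of genes that overlap SMC4 on the other strand. Intronic STAG2 had a rho of 0.373 with the G1/S score, and intronic RAD21 0.350 with G2/M and -0.403 with G1/S at a mean of 6.39 barcodes a cell. Exonic and intronic CPM of the same gene had a rho over cells from -0.0211 for RAD21 and 0.0141 for NCAPD2 to 0.362 for NCAPG and 0.369 for STAG1. At these barcode numbers weak correlations carry little, and no difference between readouts was tested.

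Around the core subunits, 27 partner genes were followed. They were the non-SMC subunits of condensin II, cohesin loaders, release factors, acetyltransferases and protectors, separase and securin. The list also held the SMC5/6 complex, CTCF and chromosome proteins of mitosis. Of the 27 partner genes 26 were tested, and NSMCE3, a subunit of SMC5/6, fell under the filter. The dispersion test called 1 of 26 as more variable in cells and 0 as more variable in aliquots, against 0.23% and 0.01% of all tested genes. An unadjusted p under 0.05 in those directions was reached by 2 (MKI67 and TOP2A) and 0. limma called 0 of 26, with the same 2 genes at an unadjusted p under 0.05, both more variable in cells. Over all tested genes 6.86% by the dispersion test and 3.67% by limma had an unadjusted p under 0.05 with more variation in cells. Counts of 1 or 2 in 26 genes are too small to be read against any of these shares.

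The called gene was MKI67, the Ki-67 protein that coats mitotic chromosomes. It ran from 91.98 through 873 to 2070 CPM in cells and from 755 through 913 to 1075 CPM in aliquots, so the aliquots lay inside the range of the cells. Its dispersion was 0.215 in cells and 0.00887 in aliquots (dispersion test, adjusted p = 0.0475). limma gave adjusted p = 0.612, and over all alternatives adjusted p ran from 0.0246 (genes of at least 50 CPM) to 0.871 (limma with the replicate block). Of 48 dispersion fits that each left out 1 library, 27 called it (adjusted p from 0.0433 to 0.144), and leaving out any 1 of the 10 aliquots ended the call. TOP2A, the topoisomerase that untangles chromosomes in mitosis, ran from 169 through 372 to 949.9 CPM in cells and from 441 through 504.4 to 691 CPM in aliquots (dispersion test, adjusted p = 0.223).

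MKI67 and TOP2A also had the highest rho with the G2/M score among the partners, 0.796 and 0.789 over cells. In all 8 of 26 reached 0.4, against 2.71% of all tested genes, and none reached -0.4, against 1.46%. The other 6, named after their values were seen, were separase ESPL1 (0.706), the shugoshins SGO2 (0.654) and SGO1 (0.533), the chromokinesin KIF4A (0.557), securin PTTG1 (0.529) and the cohesin loader NIPBL (0.415). The lowest were the SMC5/6 subunits NSMCE4A (-0.190) and NSMCE2 (-0.174). With the G1/S score 7 of 26 reached -0.4 or lower, against 2.6% of all tested genes. The condensin II subunit NCAPD3, also named after its value was seen, alone reached 0.4 (0.467), against 3.27% of all tested genes. The median rho of the 26 was 0.0683 with the G2/M score and -0.00252 with the G1/S score, against 0.0183 and -0.00689 over all tested genes. The partner list was chosen to hold genes of mitosis, such as separase, the shugoshins and mitotic chromosome proteins. The counts of partners past 0.4 or -0.4 are therefore a description of that choice and no finding against the shares of all genes.

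The 5 tested genes whose level over cells was most like the summed condensin level were the spindle midzone protein PRC1 (rho = 0.693), cyclin B1 CCNB1 (0.686), the ubiquitin ligase adaptor DDB1 (0.664), the mitotic kinase PLK1 (0.658) and the nuclear import factor KPNA2 (0.655). Over aliquots the same genes had a rho of 0.224, -0.285, -0.745, -0.406 and 0.0788. For the cohesin sum they were PCTP (0.620), MSRB1 (0.587), USP28 (0.579), DHX9 (0.571) and HSBP1 (0.569), with 0.455, 0.176, 0.479, -0.0545 and 0.588 over aliquots. These are the top of 9992 genes ranked over 38 cells, and they were picked for these values. The condensin sum weighs NCAPD2 most, so its nearest genes do not describe each condensin subunit.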

How the data were processed

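RNA of 48 libraries of HEK293T clone 1 was analysed, and 43 further samples of the series were not analysed here. The authors deposited, per library, counts of exonic reads, exonic barcodes, intronic reads and intronic barcodes over 57820 Ensembl identifiers, not normalized. Per the submitters' processing notes they used TopHat, HTSeq and hg19, with versions and strand setting not given in the sources used. Symbols, overlaps and exon lengths came from GENCODE release 29 (another build, so no coordinates of the counted genes are given). Symbols were found for 52338 identifiers, and UHRF1 of the G1/S list and NEFL of the HEK293 markers had none. A further HEK293 marker is not reported here.

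Exonic barcodes were scaled by TMM factors (edgeR 4.0.16). The 9992 genes whose mean reached 10 CPM were fitted in Python 3.11.15 with Cox-Reid adjusted negative-binomial likelihoods on 60 dispersions from 0.001 to 20, and group dispersions were compared by a two-sided likelihood-ratio test with Benjamini-Hochberg adjustment over all of them. limma 3.58.1 (R 4.3.3, prior count 1) on absolute deviations of log2 CPM was an alternative. The test was tested on simulated counts. Alternatives were DESeq2 1.42.0 size factors, library totals, other filters (none but 1 barcode in 10 libraries, or 50 CPM), exonic reads, thinning to 128322 barcodes, a trend over cell number, a replicate block and leaving out each library. No libraries were duplicates: the chi-square per degree of freedom between libraries of a group was at least 2.16 in cells and 2.09 in aliquots.

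Named partner genes were those called by either test, the 2 highest and 2 lowest in rho with the G2/M score, and the germ-cell cohesin genes, and 5 nearest genes were named for each complex. Outside this rule, ESPL1, SGO1, SGO2, KIF4A, PTTG1, NIPBL and NCAPD3 were picked for naming once their values had been seen. The members and lists were chosen with earlier results of these data known.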

Additional observations from a re-analysis of the deposited data

Results flagged for a closer look

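Among the 9 tested subunit genes, 2 had an averaged aliquot whose gap to the next, divided by the range of the 10 aliquots, was above Dixon's 95% critical value. NCAPD2 stood at 544.79 CPM in aliquot 10, with the next aliquot at 402 CPM (gap over range 0.526). RAD21 stood at 172.86 CPM in aliquot 5, with the next aliquot at 98.4 CPM (0.498). Chance flags about 1 in 20 groups.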

How the results depend on the processing

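No subunit gene was called in any of the 9 alternatives or in any of 48 fits without 1 library each, a set of fits chosen after seeing the data. The number of all tested genes called as more variable in cells was 23, and 36 with DESeq2 size factors, 48 with exonic reads, 11 after thinning and 0 with limma. As more variable in aliquots 1 gene was called, and 2 with DESeq2 size factors, 0 without the level filter, 4 with exonic reads, 0 after thinning, 2 with the trend over cell number removed and 3 with limma. Without 1 library these counts ran from 6 (aliquot 6) to 27 in cells and from 0 to 3 (cell 31) in aliquots, and the first was 14 or lower without aliquot 1 or any of aliquots 4 to 10. The cause of these shifts was not tested.

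The ratio of the dispersion in cells to that in aliquots crossed 1 for NCAPG (0.604) and STAG2 (0.845) with exonic reads, for NCAPH (0.432) after thinning and for SMC2 (0.845) with the trend removed. Without 1 library it ran from 0.845 (cell 36) to 28.7 (aliquot 1) for SMC2, from 3.24 to 40.2 (aliquot 10) for NCAPD2, from 1.18 to 2.31 for NCAPG, from 3.24 (aliquots 2 and 5) to 28.7 (aliquots 7 and 8) for NCAPH, from 0.604 to 1.18 (aliquot 2) for SMC1A, from 1.40 to 3.83 (aliquot 3) for SMC3, from 0.365 (cell 22) to 3.24 (aliquot 5) for RAD21, from 0.604 (cell 8) to 1.96 (aliquots 2 and 9) for STAG1 and from 1.96 to 8.87 (aliquot 2) for STAG2. The cohesin sum had a rho of 0.164 with the G1/S score with exonic reads (0.330 with barcodes). The relations of NCAPG and NCAPD2 to G2/M kept their sign without any 1 cell, at 0.691 to 0.758 and 0.637 to 0.696.

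Cells and aliquots share the replicate numbers 1 to 10, but same-numbered libraries did not deviate together. The 10 correlations ran from -0.0434 to 0.0460, and 1 of 10 cells was closest to its own number. Shared numbers were therefore not read as pairs of a cell and an aliquot. This check does not bear on trends over cell number, such as that of SMC2 (rho = 0.480). With the replicate block limma called 0 and 0 genes (414 and 142 at an unadjusted p under 0.05), and the spread ratio was 0.899 for SMC2 and 0.818 for NCAPH. Depth limits RAD21 and STAG1 most, with under 20 exonic barcodes in a mean cell.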
